A study of Homo sapiens with 7 samples.

Results

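The genes described here encode the cell surface receptors and basement membrane proteins with which epithelial cells hold on to the matrix below them. They are the integrin alpha subunits ITGA2, ITGA3 and ITGA6, the integrin beta subunits ITGB1, ITGB4 and ITGB6, the laminin chains LAMA3 and LAMB3, and PLAUR, the receptor of the protease urokinase. The 9 genes were taken by name out of 20163 protein-coding genes annotated on the human genome build hg19 by GENCODE (release 44). For each of them, every deposited interval that overlapped the gene body or the 10 kb on either side was collected.

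The study used PIXUL, a sonicator that shears chromatin in all wells of a microplate, ahead of chromatin immunoprecipitation and sequencing. All libraries came from HCT116, a human colorectal carcinoma cell line, with 200000 cells in 1 well of 100 µl sheared for 6 min. The study's ChIP-seq methods name no treatment of these cells. The labels give 7 libraries, 1 for each antibody. Interval lists of 6 were used, for H3K4me1, H3K4me3, H3K9Ac, H3K27me3, H3K36me3 and CTCF, and H3K27Ac was not analysed here. With 1 library for each mark there is no replicate error, so no difference below was tested. Read depth is unknown from the lists, which held 16112 intervals for H3K4me3 and 55270 for H3K27me3 at the extremes.

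An integrin is a pair of 1 alpha and 1 beta subunit that spans the membrane. ITGB1 pairs with ITGA2 to bind collagen and with ITGA3 or ITGA6 to bind laminin, while ITGA6 with ITGB4 anchors the keratin skeleton at hemidesmosomes. LAMA3 and LAMB3 are chains of the laminin heterotrimer that lies under hemidesmosomes. H3K4me3 marks active promoters, H3K9Ac marks active promoters and enhancers, and H3K4me1 marks enhancers and the flanks of promoters. H3K36me3 follows elongating RNA polymerase over gene bodies, H3K27me3 is laid down by Polycomb on repressed genes, and CTCF binds DNA at insulators and loop anchors.

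Each interval has a fold enrichment, which is the read density over its local background, and a q-value. The study's limits were a q-value below 1e-03 with a fold enrichment above 2 for H3K4me1 and H3K27me3. For the other histone marks they were a q-value below 1e-10 with a fold enrichment above 5. The study states no limit for CTCF, and the limits of the other histone marks were applied to it here. Intervals past these limits are called past limits below, and the rest of the deposited intervals under limits. The transcription start site (TSS) is that of the canonical transcript of each gene.

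The cell type label was checked against H3K4me3 at the TSS of marker genes. Of 9 epithelial markers, 5 had an interval past limits, against 59.1% of all protein-coding genes, so the count alone does not set them apart. The 5 were CDX2, EPCAM, CDH1, KRT18 and KRT8 at fold enrichments of 21.8 to 31.6. KRT20, VIL1, LGALS4 and GPA33 had none. None of 4 blood cell markers and none of 3 endothelial markers had one. Of 4 fibroblast markers, COL1A1 had one at a fold enrichment of 9.21.

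Most of the adhesion genes carried promoter marks and none carried H3K27me3 in its body. H3K4me3 past limits lay at the TSS of 7 of 9 genes, against 59.1% of all protein-coding genes. H3K9Ac past limits was found at the same 7, against 58.5%, and H3K4me1 past limits at 8 of 9, against 49.1%. CTCF past limits lay at the TSS of 1 of 9, against 13.6%. Counting every deposited interval, 8 of 9 had H3K4me3 at the TSS, against 61.6%, and 7 of 9 had CTCF, against 29.5%. No deposited H3K27me3 interval touched any of the 9 gene bodies, while 20.7% of all genes had one. Few intervals of that list were past limits, 1552 of 55270, and 596 of the 20163 genes had such an interval over the body. Absence past limits was thus the common state. H3K36me3 covered part of 7 of the 9 bodies, against 56.3% of all genes.

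The windows of the 9 genes held 165 intervals, of which 81 were past limits. They comprised 53 for H3K4me1, 42 for H3K9Ac, 31 for CTCF, 21 for H3K36me3, 17 for H3K4me3 and 1 for H3K27me3. ITGB1 had the most with 25, followed by LAMA3 with 23 and ITGA2 with 22. ITGB6 had the fewest with 5 and LAMB3 had 9. These counts are not scaled by gene length, which ran from 24.5 kb in PLAUR to 266.77 kb in LAMA3. The start of another coding gene, PDK2 behind ITGA3, GALK1 behind ITGB4 or CADM4 behind PLAUR, lay within 1 kb of 12 of the 165, among them the H3K27me3 interval.

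**Figure D1:**
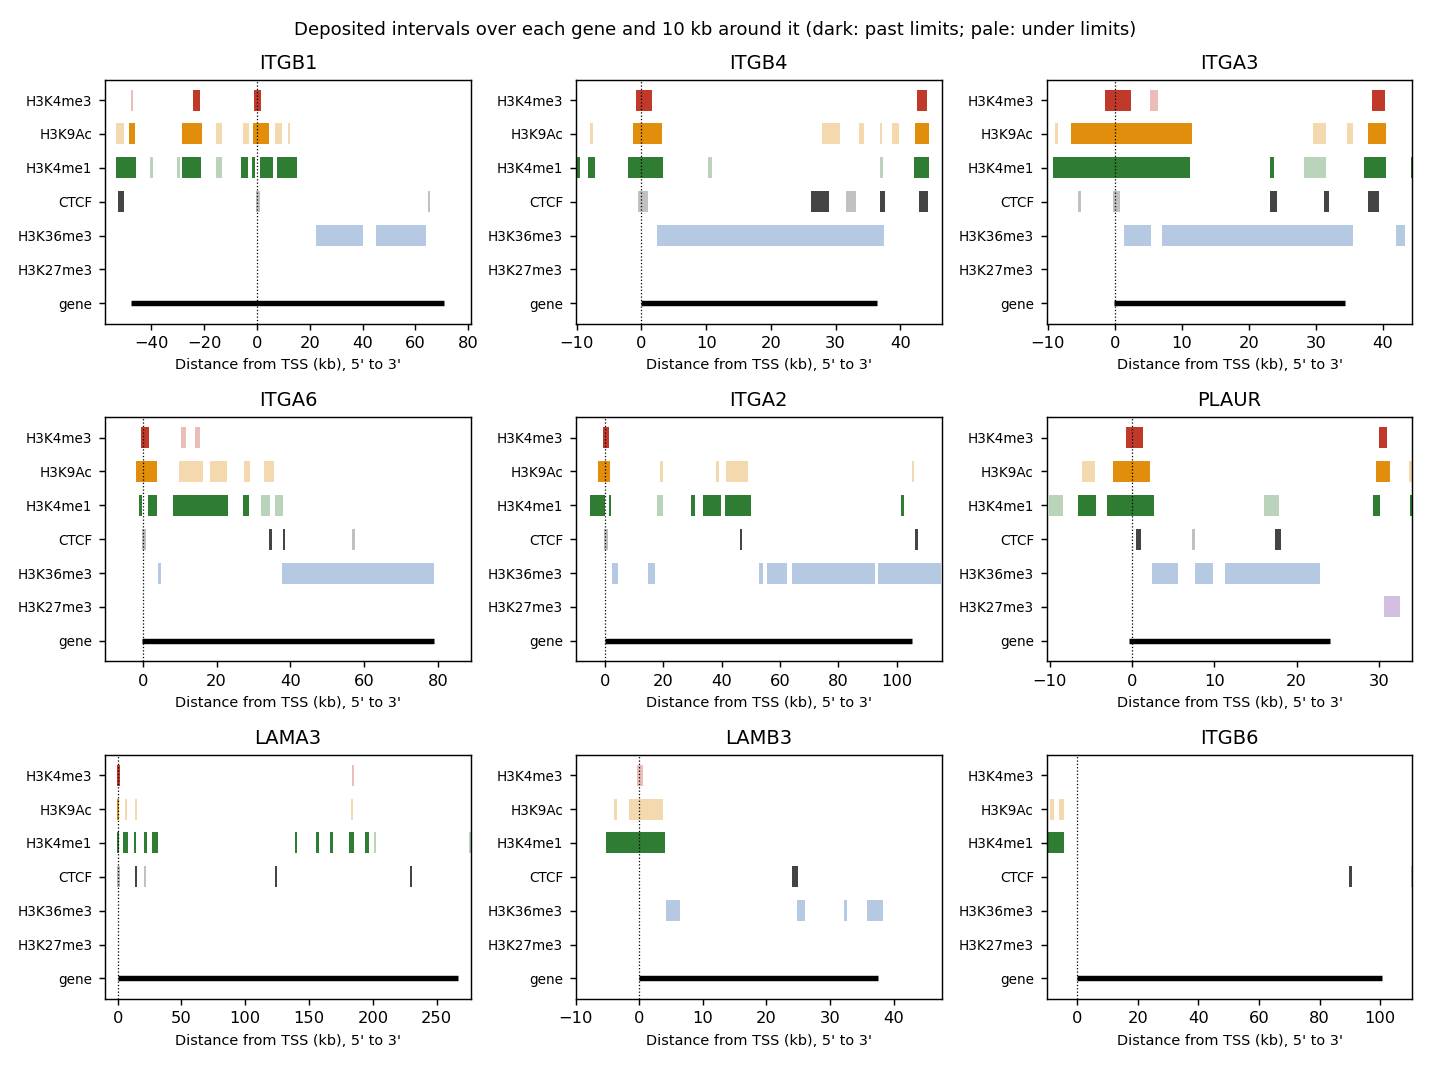
Deposited intervals of the 6 lists over each gene and 10 kb on both sides, with the distance from the TSS in kb on the x axis and 1 row for each list. Dark bars are past limits, pale bars under limits, and the black bar is the annotated gene. ITGB6 is the gene with no bar at its TSS, and H3K36me3 bars are absent from LAMA3 and ITGB6.

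The base composition of the promoters is shown first because the genes fell far apart in it. From 250 bases before to 50 bases after the TSS, GC content was 78.7% in ITGB4, 78.3% in ITGB1, 72.7% in ITGA2, 72.0% in ITGA6 and 71.0% in ITGA3. It was 64.0% in PLAUR, 63.0% in LAMA3 and 61.3% in LAMB3. ITGB6 had 31.7%. The median was 67.3% over all promoters with H3K4me3 past limits and 54.3% over those with no H3K4me3 interval. CpG dinucleotides numbered 42 in ITGB4 and 39 in ITGB1, 10 in LAMB3 and 0 in ITGB6. In this window the 5 integrin genes with H3K4me3 past limits were the 5 richest in GC. The order depends on the window, since over the 150 bases upstream of the most 5′ annotated start ITGA6 had 52.7% and ITGA3 65.3%, below LAMA3 with 73.3%.

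The 150 bases just upstream of the most 5′ annotated start, except in ITGB1, are printed for 5 genes that span this range, in the order of their H3K4me3 enrichment. For ITGB1 the start used was that at chr10:33247253, and other annotated starts lie farther upstream. The printed bases are hg19 sequence on the gene's strand. Capitals mark a GC box (GGGCGG) or a TEAD site (GGAATG) on either strand; the LAMA3 TEAD site and GC box adjoin and form 1 run of capitals.
ITGB1, chr10:33247254-33247403, minus strand: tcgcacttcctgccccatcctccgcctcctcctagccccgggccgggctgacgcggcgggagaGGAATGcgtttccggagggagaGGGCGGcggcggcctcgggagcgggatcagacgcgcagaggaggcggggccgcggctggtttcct
ITGA2, chr5:52285020-52285169, plus strand: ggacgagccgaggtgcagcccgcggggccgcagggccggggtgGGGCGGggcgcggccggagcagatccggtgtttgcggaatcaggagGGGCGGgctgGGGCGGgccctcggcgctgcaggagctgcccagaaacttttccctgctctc
LAMA3, chr18:21269267-21269416, plus strand: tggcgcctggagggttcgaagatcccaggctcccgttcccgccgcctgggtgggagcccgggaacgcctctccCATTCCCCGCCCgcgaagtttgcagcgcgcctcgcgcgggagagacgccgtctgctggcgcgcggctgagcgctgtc
LAMB3, chr1:209825771-209825920, minus strand: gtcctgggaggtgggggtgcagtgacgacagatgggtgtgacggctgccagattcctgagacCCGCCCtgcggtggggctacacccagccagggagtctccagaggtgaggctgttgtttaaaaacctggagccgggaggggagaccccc
ITGB6, chr2:161056825-161056974, minus strand: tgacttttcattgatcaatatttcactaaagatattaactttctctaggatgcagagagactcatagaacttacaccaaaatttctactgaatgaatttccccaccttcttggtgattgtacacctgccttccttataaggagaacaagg

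In the windows from 250 bases before to 50 bases after the TSS, GC boxes numbered 4 in ITGA2 and ITGB4, 3 in ITGA6 and ITGB1, and 1 in ITGA3, LAMA3 and LAMB3. PLAUR and ITGB6 held 0. Of all protein-coding promoters, 60.9% held a GC box, and of those with H3K4me3 past limits 78.7%. A TEAD site stood in ITGB1, ITGB4 and LAMA3, in 11.3% of all promoters and in 9.37% of those with H3K4me3 past limits. None of the 9 windows held a TATA box (TATAAA on either strand), but 1 lay 50 bases before the most 5′ annotated start of ITGA6. A TATA box was in 9.80% of all promoters and in 4.44% of those with H3K4me3 past limits. ITGB4 and PLAUR each held 1 AP-1 site (TGACTCA on either strand). Such a site was in 3.57% of all promoters and in 2.19% of those with H3K4me3 past limits. These 2 sites are shown on the gene's strand with the site in capitals, at 68 to 62 bases before the TSS in ITGB4 and at 186 to 180 bases before it in PLAUR.
ITGB4, chr17:73717463-73717485, plus strand: agccggtcTGACTCAccagcgcc
PLAUR, chr19:44174493-44174515, minus strand: caactccaTGAGTCAgggccgag

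ITGB1, a beta subunit shared by many integrins, had the strongest H3K4me3 of the 9 genes. Its interval at the TSS had a fold enrichment of 39.2 and a width of 2651 bp, above 97.5% of the 12428 genes with an H3K4me3 interval there. ITGB4, the hemidesmosome subunit, followed with 34.1 (92.3%), ITGA3 with 33.0 (90.2%) and ITGA6 with 25.9 (68.0%). These 4 lay above the median of 22.1 over all genes with an interval. ITGA2, the collagen receptor subunit, had 18.7 (34.0%) and PLAUR 14.5 (18.8%). Both laminin chains were near the bottom of the range. LAMA3 had a fold enrichment of 8.17 over 851 bp (6.29%) and LAMB3 had 6.22 over 802 bp (3.73%). The −log10 q-value of the LAMB3 interval was 9.19, so that it fell just under limits, while that of LAMA3 was 14.5. ITGB6, a beta subunit that pairs with ITGAV, had no H3K4me3 interval in its window.

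The widest H3K4me3 promoter was that of ITGA3, at 3808 bp. It ranked 434 among the 16112 intervals of the list. ITGB1 and ITGB4 were next with 2651 bp and 2400 bp.

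H3K9Ac had another order. ITGB4 had the highest fold enrichment at the TSS with 20.5, above 95.2% of the 12969 genes with an H3K9Ac interval there, followed by ITGB1 with 16.3 (79.8%). The other 5 intervals past limits lay below the median of 12.6. They were 11 in ITGA2, 10.7 in ITGA3, 10.4 in ITGA6, 9.87 in PLAUR and 8.37 in LAMA3. LAMB3 had 4.42, under limits, and ITGB6 had none. ITGA3 thus combined one of the strongest H3K4me3 promoters of the set with an H3K9Ac enrichment in the lower part of all marked genes (33.4%). That H3K9Ac value stands for an interval of 17962 bp, against a median width of 1746 bp over the list. It does not give the enrichment at the TSS alone.

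H3K4me1 was past limits at all 8 promoters with H3K4me3. ITGA3 stood highest with a fold enrichment of 11.6, above 99.8% of the 12346 genes with an H3K4me1 interval at the TSS. ITGB4 had 8.92 (98.7%), LAMA3 7.25 (94.7%), LAMB3 6.50 (90.2%), ITGA2 6.06 (86.2%) and ITGA6 5.80 (83.5%). PLAUR with 4.54 and ITGB1 with 4.33 were near the median of 4.40. The 2 laminin genes, low in H3K4me3 and H3K9Ac, were thus high in H3K4me1. In ITGB1 the order was the opposite, with the highest H3K4me3 and the lowest H3K4me1 of the 8. These H3K4me1 values stand for whole intervals, of 20460 bp in ITGA3 and 9358 bp in LAMB3, and not for the TSS alone. In ITGA2, ITGA6 and ITGB1 the interval ended before the TSS.

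**Figure D2:**
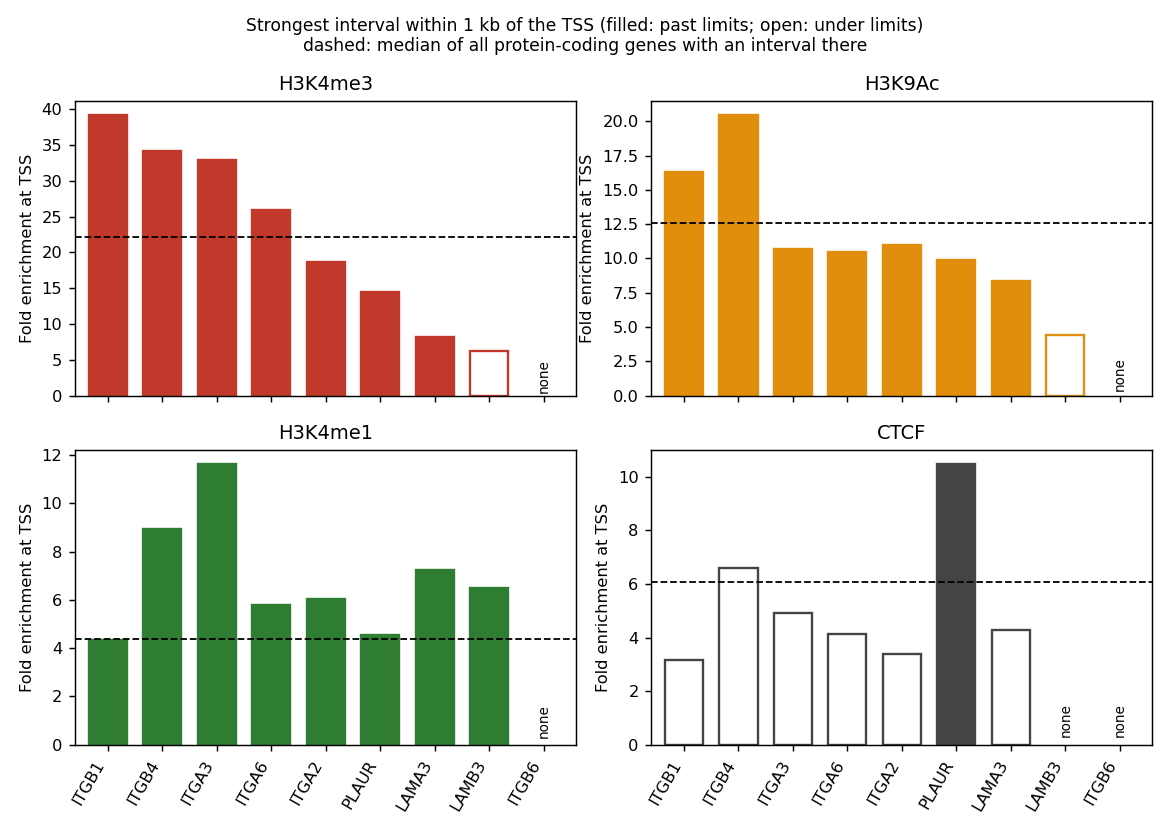
Fold enrichment of the strongest interval within 1 kb of the TSS for H3K4me3, H3K9Ac, H3K4me1 and CTCF, 1 bar for each of the 9 genes in the order of H3K4me3, from 1 library for each mark. Filled bars are past limits, open bars under limits, and the dashed line is the median of all protein-coding genes with an interval there, such as 22.1 for H3K4me3; LAMA3 and LAMB3 are low in H3K4me3 and above the median in H3K4me1.

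The layout of H3K4me1 around the TSS came in 2 forms. In ITGA2, ITGA6 and ITGB1 it flanked the promoter and left the TSS base free. Only 33.1%, 28.4% and 38.6% of their H3K4me3 intervals lay under H3K4me1. In ITGA3, ITGB4, LAMA3, LAMB3 and PLAUR, H3K4me1 ran across the TSS and covered 100% of the H3K4me3 interval. The latter was the common form, since the median over all 12428 genes with H3K4me3 at the TSS was 99.2%. H3K9Ac covered 100% of the H3K4me3 interval in all 8 genes, which was also the median over all genes.

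ITGA3 was the gene with the broadest acetylated and H3K4me1-marked start. A single H3K4me1 interval of 20460 bp ran from 9.21 kb before to 11.2 kb after its TSS, over exons 1 to 3, and ranked 152 among 50521 intervals by width. Over it lay an H3K9Ac interval of 17962 bp, from 6.45 kb before to 11.5 kb after the TSS, which ranked 133 among 34164. In LAMB3 an H3K4me1 interval of 9358 bp likewise spanned exons 1 to 3, but H3K9Ac over it was under limits. The H3K4me1 interval at the LAMA3 TSS was short, with 1482 bp.

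H3K4me1 also ran through first introns. Of the 53 H3K4me1 intervals, 8 lay at the TSS of the genes, 3 at the start of another coding gene and 14 had their middle in intron 1. These counts were not scaled by intron length, and the shares over the whole list were not computed. In ITGA6, the laminin-binding alpha subunit, intron 1 held an interval of 14884 bp that began 8.17 kb after the TSS, with a fold enrichment of 6.42, rank 360 by width. Within it were H3K9Ac intervals at 4.89 and 3.16 and H3K4me3 intervals at 2.99 and 3.31, all of these under limits. ITGA2 had an H3K4me1 interval of 8714 bp in intron 2, from 41.2 to 49.9 kb, with a fold enrichment of 5.16 and with H3K9Ac at 3.52 over nearly the same stretch, under limits. LAMA3, the longest of the 9 genes at 266.77 kb, had the most H3K4me1 intervals with 12, of which 10 were past limits.

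The largest H3K4me1 interval to touch any window stood upstream of ITGB4. It measured 34970 bp with a fold enrichment of 9.13, ranked 39 by width, and ended 9.52 kb before the TSS. Only its last part reached into the window.

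Away from their own TSS and from other coding genes, the 9 genes had 6 H3K4me3 intervals, of which 1 was past limits. That one lay upstream of ITGB1, at chr10:33268785-33271318, from 24.2 to 21.6 kb before the TSS, with a fold enrichment of 7.18. It overlapped an H3K9Ac interval of 7245 bp at 6.66 and an H3K4me1 interval of 7267 bp at 7.16, both past limits, and contained no annotated ITGB1 start. A further H3K4me3 interval of 723 bp, at 5.70 and under limits, lay over the farthest annotated ITGB1 start, 47.1 to 47.8 kb before the TSS. H3K9Ac there was past limits at 5.89 and H3K4me1 at 5.18.

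LAMA3 has a second start inside the gene, from which a shorter alpha chain is made. At chr18:21452739-21453910, 183 to 184 kb after the first TSS and in intron 38 of the long transcript, lay an H3K4me3 interval enriched 5.49-fold, under limits since its −log10 q-value was 8.75. It contained the starts of 2 annotated LAMA3 transcripts. H3K9Ac was 4.79 there, under limits, and H3K4me1 was 5.20, past limits. At the first TSS the 3 values were 8.17, 8.37 and 7.25, each higher than at the internal start.

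H3K36me3 covered from 31.0% to 93.0% of the body of 5 integrin genes and PLAUR, and was scarce over the laminin chains and ITGB6. It lay over 93.0% of the gene body in ITGB4, 91.3% in ITGA3, 69.1% in PLAUR, 53.1% in ITGA6 and 50.4% in ITGA2. ITGB1 had 31.0% of its annotated body and 52.7% of its canonical transcript, since the annotated gene extends upstream to that farthest start. LAMB3 had 14.8%, and LAMA3 and ITGB6 had no interval. With only intervals of a q-value below 0.01, cover fell to 11.2% in ITGA2, 52.2% in ITGA6, 60.1% in PLAUR and 0% in LAMB3. It did not change in ITGA3, ITGB1 and ITGB4. With every deposited interval, the median of the 9 genes was 50.4%. It was 4.83% over all protein-coding genes and 37.7% over the 11924 genes with H3K4me3 past limits. LAMA3 therefore had H3K4me3 and H3K9Ac past limits at the TSS and no H3K36me3 over a body of 266.77 kb; among genes with H3K4me3 past limits, 83.9% had at least 1 interval.

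None of the 21 H3K36me3 intervals was past limits, as was the case for all but 90 of the 40010 intervals of that list. Their fold enrichments ran from 2.65 in ITGA6 to 4.43 in ITGA3. The interval of 28472 bp that held this highest value covered exons 2 to 26 of ITGA3. In ITGB4 a single interval of 35096 bp at 4.17 covered exons 2 to 40.

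The cover was weighted to the 3′ part of the covered genes other than LAMB3. When the canonical transcript was cut into 10 equal parts, the last part was covered to 100% in ITGA2, ITGA3, ITGA6, ITGB1, ITGB4 and PLAUR. In LAMB3 it was covered to 44.4%, less than the second part with 56.4%. The first part was covered to 61.2% in ITGA3, 33.5% in ITGB4, 20.2% in ITGA2 and 9.61% in ITGA6, and to 0% in ITGB1 and PLAUR. In ITGA6 one interval of 41366 bp began within the last H3K4me1 interval of intron 1 and ran over exons 2 to 26. ITGA2 had 3 free parts, the third to the fifth, where H3K4me1 intervals of introns 1 and 2 lay. The last part of ITGA2 lay under an interval of 21733 bp that ended 115.37 kb after the TSS, beyond this gene of 105.44 kb. That interval was the only one over ITGA2 with a q-value below 0.01. The coding gene MOCS2 lies within 10 kb of ITGA2, and to which gene this cover belongs was not tested.

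**Figure D3:**
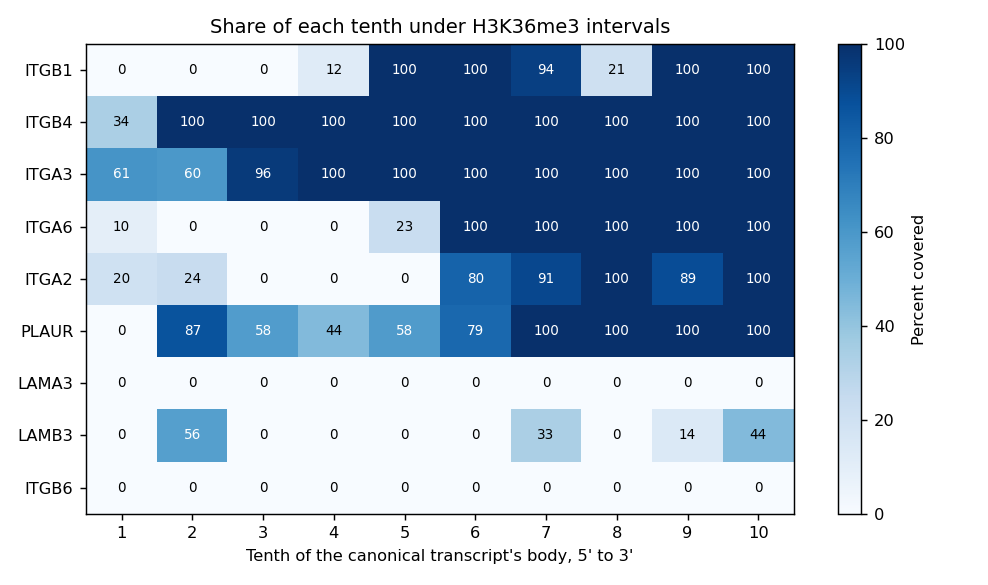
Percent of each of 10 equal parts of the canonical transcript's body under deposited H3K36me3 intervals, from the 5′ end on the left to the 3′ end on the right, for the 9 genes. The last part is at 100 in 6 genes and at 0 in LAMA3 and ITGB6.

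CTCF intervals of these windows lay mostly away from the TSS of the 9 genes, with 7 of 31 there. Another 2, both past limits, lay at the starts of PDK2 and GALK1. The share of the whole CTCF list at a TSS was not computed. Of the 31 CTCF intervals, 18 were past limits and 1 of these was at a TSS of the 9 genes. That one was in PLAUR, at 10.5, from 538 to 1155 bp after the TSS in intron 1. At the TSS of ITGB4, ITGA3, LAMA3, ITGA6, ITGA2 and ITGB1, CTCF intervals were under limits, with 6.62, 4.92, 4.28, 4.15, 3.39 and 3.17. The strongest CTCF interval of all windows was in ITGA3, at 18.3, 31.1 kb after the TSS over exon 24. ITGB6 came next, at 18.2, in intron 13 close to its 3′ end, and ITGA6 had 17.9 in intron 1. ITGB6 thus held a CTCF interval above 95.9% of the list in a gene with no other interval in its body.

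Of the 18 CTCF intervals past limits, 5 held the 12-base CTCF core consensus without mismatch, and 14 held it with at most 1 mismatch. Over all 24536 CTCF intervals past limits these shares were 22.4% and 65.9%. The 13 intervals under limits held 0 without mismatch and 6 with at most 1, against 7.52% and 37.2% of all intervals under limits. PLAUR's promoter interval held no core with at most 1 mismatch. The 5 cores without mismatch are printed in capitals with 6 bases on each side, on the strand of the core, to show the sequence under these intervals.
ITGA2, chr5:52391943-52391966, minus strand, 107 kb after the TSS, fold enrichment 10.8: gatcatCCAGCAGAGGGCagtaga
ITGA3, chr17:48164987-48165010, minus strand, 31.5 kb after the TSS, fold enrichment 18.3: ctgctgCCAGTAGGGGGCagcctg
ITGB4, chr17:73746128-73746151, minus strand, 28.6 kb after the TSS, fold enrichment 12.1: ccttcaCCACCAGGGGGCgccaga
LAMA3, chr18:21498580-21498603, minus strand, 229 kb after the TSS, fold enrichment 10.9: catcaaCCAGCAGATGGCgctgac
LAMB3, chr1:209801166-209801189, minus strand, 24.6 kb after the TSS, fold enrichment 11.7: tggcctCCAGCAGGTGGCagcaca

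ITGB6 was the gene without promoter marks. Its TSS had no interval of any list within 1 kb, and its 5 intervals comprised 1 for H3K4me1, 2 for H3K9Ac and 2 for CTCF. The H3K4me1 interval, at 6.47 and past limits, measured 6115 bp and lay from 10.3 to 4.21 kb before the TSS. The H3K9Ac intervals lay within it, at 5.50 from 8.82 to 7.47 kb and at 3.73 from 5.93 to 4.21 kb before the TSS, both under limits. Each of these held an AP-1 site, and 1 from each is printed here, plus strand, with the site in capitals.
ITGB6, chr2:161064768-161064790, in the interval at 5.50: tcgggagaTGACTCAggatgaac
ITGB6, chr2:161062157-161062179, in the interval at 3.73: ccggtgtcTGAGTCActgcagtt

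A distal H3K9Ac interval was taken as one that overlaps H3K4me1 past limits, has no H3K4me3 and lies over 1 kb from every coding TSS. Past limits, the 9 windows held 0 of these. With every deposited interval of both H3K9Ac and H3K4me1, in place of those past limits, there were 19, with fold enrichments of 2.67 in ITGB4 to 5.50 in ITGB6. ITGB1 had 4, and ITGA2 and ITGA6 had 3 each. An AP-1 site was in 10 of the 19 (52.6%), and in 50.6% of the 14213 intervals chosen in the same way over the whole list, so that the members' share was close to that of the whole list. The ITGA2 interval in intron 2, of 7572 bp, and the ITGA6 interval of 4580 bp in intron 1 held 4 sites each.

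The other genes of the adhesion system were counted beside all protein-coding genes, of which 59.1% had H3K4me3 past limits at the TSS. Of the 20 other integrin subunits, 7 had H3K4me3 past limits at the TSS. ITGB5 was the highest at 26.1, and 12 had no H3K4me3 interval there. H3K27me3 of any strength touched the body of 6 of the 20, against 20.7% of all genes. Past limits it touched 1 of the 20, ITGA8, against 596 of the 20163 protein-coding genes. Of the 10 other laminin chains, 6 had H3K4me3 past limits, with LAMA5 the highest at 34.6, and 3 had none. H3K36me3 lay over 92.4% of the LAMA5 body, against 14.8% of LAMB3 and 0% of LAMA3.

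The proteins that act with integrins were counted in the same way, beside the same 59.1% of all protein-coding genes. Of 14 integrin-linked adhesion proteins, many of which connect integrins to actin, 12 had H3K4me3 past limits. The highest was ZYX (zyxin) at 39.2, and FERMT3 and TNS1 had no interval. Of 4 hemidesmosome partners of ITGA6 and ITGB4, 3 had H3K4me3 past limits, with the tetraspanin CD151 the highest at 26.5 and the collagen COL17A1 without an interval. In the urokinase system 1 of 5 had it, PLAU, the ligand of PLAUR, at 25.2, and the other 4 had none. The median H3K4me3 fold enrichment with 0 for genes without an interval was 18.7 over the 9 genes and 14.5 over all protein-coding genes. It was 0 over the other integrins, 9.74 over the other laminin chains and 23.4 over the adhesion proteins.

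**Figure D4:**
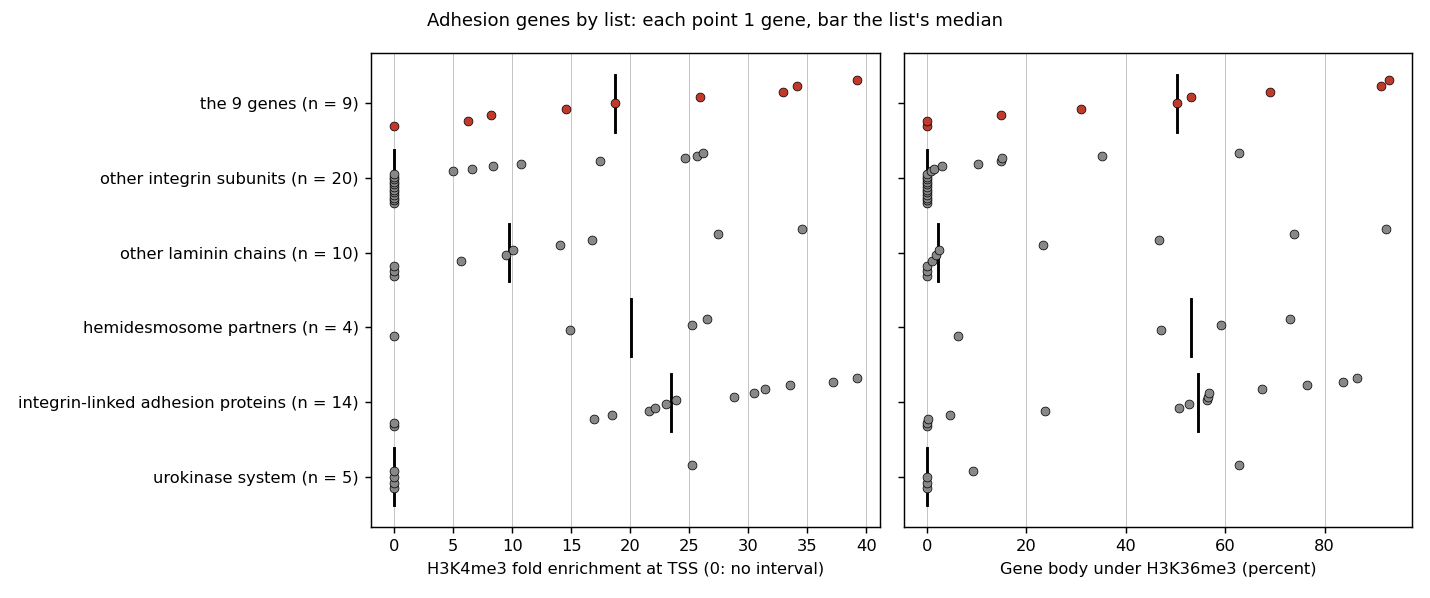
H3K4me3 fold enrichment at the TSS (left, 0 where no interval) and percent of the gene body under H3K36me3 (right) for the 9 genes and 5 lists of adhesion genes, 1 point for each gene and a bar at the list's median. The 9 genes have medians of 18.7 and 50.4%, and many of the 20 other integrin subunits are at 0 in both.

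Likeness was measured over 6 values for each gene, which were the fold enrichments at the TSS and the H3K36me3 cover, each as a rank percentile over all genes, by Euclidean distance to the 61 other adhesion genes. ITGA3 was closest to LAMA5, at 4.58 percentile points. The pairs that followed were PLAUR with LAMB2 (13.1), LAMA3 with ITGB3 (13.7), ITGA2 with LAMB2 (21.7), ITGA6 with ITGA2 (21.9), ITGB1 with PTK2 (22.98), LAMB3 with PLAT (24.5) and ITGB4 with CD151 (28.5). ITGB6, with no value above 0, shared this with 8 of the 61, among them ITGA4 and ITGAL. ITGA6 was the only gene of the 9 whose nearest gene was another of the 9.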

How the data were processed

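The authors aligned reads to hg19 with BWA and called broad intervals with MACS2 at a cutoff of 0.1 for each library. The submitters' processing notes also list bcl2fastq 2.20.0.442, BWA 0.7.12, SAMtools 0.1.19 and MACS 1.4.2. Of the deposited columns, the fold enrichment (a ratio over local background) and the −log10 q-value were used. The names of the H3K27me3 intervals do not name HCT116, so its source rests on the labels. No read counts were used, so depth and counting error are unknown.

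Here, each interval was placed against GENCODE 44 lifted to hg19 with at least 1 bp of overlap, in Python 3.11.15 with pandas 2.3.3 and pyfaidx 0.9.0.4. A gene counted as marked where an interval past limits lay within 1 kb of its TSS. All deposited intervals were used for H3K36me3. The overlap code was tested on simulated intervals, and its counts equalled those of bedtools 2.31.1 in 9 of 9 windows for each list. Of 4 endothelial markers, 3 were matched in the annotation.

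All 9 genes are named. From the other lists, genes are named for the highest or lowest H3K4me3 at the TSS and for likeness, apart from ITGA8, named after its H3K27me3 was seen. The members and lists were chosen with earlier results of these data known. Alternatives changed the limits, the windows, the starts and the mismatches.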

Additional observations from a re-analysis of the deposited data

How the results depend on the processing

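No paired analysis was possible because there was 1 library for each mark. Of 55 recomputed values, 41 stayed within 1.5 times the reported value and 14 moved. With intervals past limits only, the windows held 11 H3K4me3 intervals (17 with all), 12 for H3K9Ac (42), 18 for CTCF (31), 0 for H3K27me3 (1) and 0 for H3K36me3 (21). The H3K27me3 count was also 0 in gene bodies alone. CTCF at the TSS, 1 gene as reported, became 7 with all deposited intervals, 0 within 500 bp and 2 with any annotated start. Members with H3K36me3 fell from 7 to 0 past limits, and their median cover from 50.4% to 31.0% with a q-value below 0.01 and to 0% past limits. Distal H3K9Ac intervals numbered 19 with all deposited intervals of H3K9Ac and H3K4me1 against 0, and CTCF intervals with the core numbered 14 with 1 mismatch against 5. Using the canonical transcript for the H3K36me3 cover, chosen after seeing the data, gave a median of 52.7%. The promoter counts of H3K4me3, H3K9Ac and H3K4me1 stayed at 7 to 8 throughout. Fold enrichments come from single libraries of unknown depth, so differences between genes carry no error.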
